A study of Talpa occidentalis with 2 samples.

Results

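The genes described here are the keratins and the keratin-associated proteins of the Iberian mole, Talpa occidentalis, as they stand in the gene annotation of genome build talOcc3. Members were chosen by name alone: a model counted as a keratin when its symbol was KRT followed by a number, and as a keratin-associated protein when its symbol began with KRTAP and a number. A copy suffix was ignored. This gave 96 of 23336 gene models, 59 of them keratin models under 47 symbols and 37 keratin-associated protein models under 20 symbols.

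The series recorded chromatin contacts of the FGF9 transcription start by circular chromosome conformation capture (4C-seq) in wild-type mole embryos. Each tissue, forebrain or hindlimb, gave 1 library at embryonic day 15, so there were no replicates. The annotation has no column for either library, and contact values were not analysed here. Every value below is a position, length or count in 1 assembled genome, without an error between samples, and no test was made.

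Keratins are the intermediate filament proteins of epithelia. An acidic type I keratin pairs with a basic or neutral type II keratin, and the pairs assemble into filaments that anchor at desmosomes and carry mechanical load. Different pairs mark different epithelia: simple epithelia, basal and suprabasal epidermis, cornea, the inner root sheath that guides the growing hair, and the hair shaft itself. Keratin-associated proteins form the cross-linked matrix around hair shaft keratins. Their genes are usually short and without introns, and they are grouped by content into high-sulfur, ultrahigh-sulfur and high glycine-tyrosine families. Mammals carry most type I keratin genes in 1 cluster and most type II genes in another, with the type I gene KRT18 at the end of the type II cluster.

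Names in the annotation came from the match of each model to a named target transcript of another annotation, so a name marks likeness to that target. Several models can share a target. The 59 keratin models came from EVM, a program that merges several lines of evidence (53 models), and from exonerate, a sequence aligner (6 models). Of the 37 keratin-associated protein models, 24 came from exonerate, 12 from a source named ALN and 1 from EVM.

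Of the 59 keratin models, 54 lay in 2 clusters and 5 lay elsewhere. The type I cluster spanned 805 kb of scaffold 28, from 8269921 to 9074593, and held 29 keratin models under 25 symbols. All 29 were on the minus strand. The 10 keratin-associated protein models of the scaffold lay between the keratins KRT40 and KRT33A. The nearest models outside were SMARCE1, a chromatin remodelling subunit, 2.45 kb below, and a copy of the translation factor EIF1, 39.4 kb above. JUP, which encodes the desmosomal linker plakoglobin, lay 0.0722 Mb beyond the last keratin.

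The type II cluster spanned 550.0 kb of scaffold 34, from 11994772 to 12544815. It held 25 keratin models under 21 symbols, 24 of them type II and 1 of them KRT18. On this scaffold 21 keratin models were on the minus strand and 4, KRT7, a copy of KRT86, KRT85 and KRT18, were on the plus strand. The autophagy gene ATG101 lay 38.4 kb below and the translation factor gene EIF4B 32.6 kb above. No keratin-associated protein model lay inside it.

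Both clusters were dense in genes. Around a keratin of the type I cluster, the median number of other models starting within 1 Mb was 95 (range 84 to 103), against 25 for all models (range 0 to 162). Only 4.36% of all models had as many neighbours as that median. The type II cluster had a median of 73 (range 70 to 76), which 10.3% of all models reached. These counts include the members themselves, which were grouped because they lie close together. The type I cluster had 29 keratin and 10 keratin-associated protein models, and the type II cluster 25 keratin models. The median gap between successive keratin models was 8.48 kb in the type I cluster, with the keratin-associated proteins passed over, and 9.89 kb in the type II cluster.

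**Figure D1:**
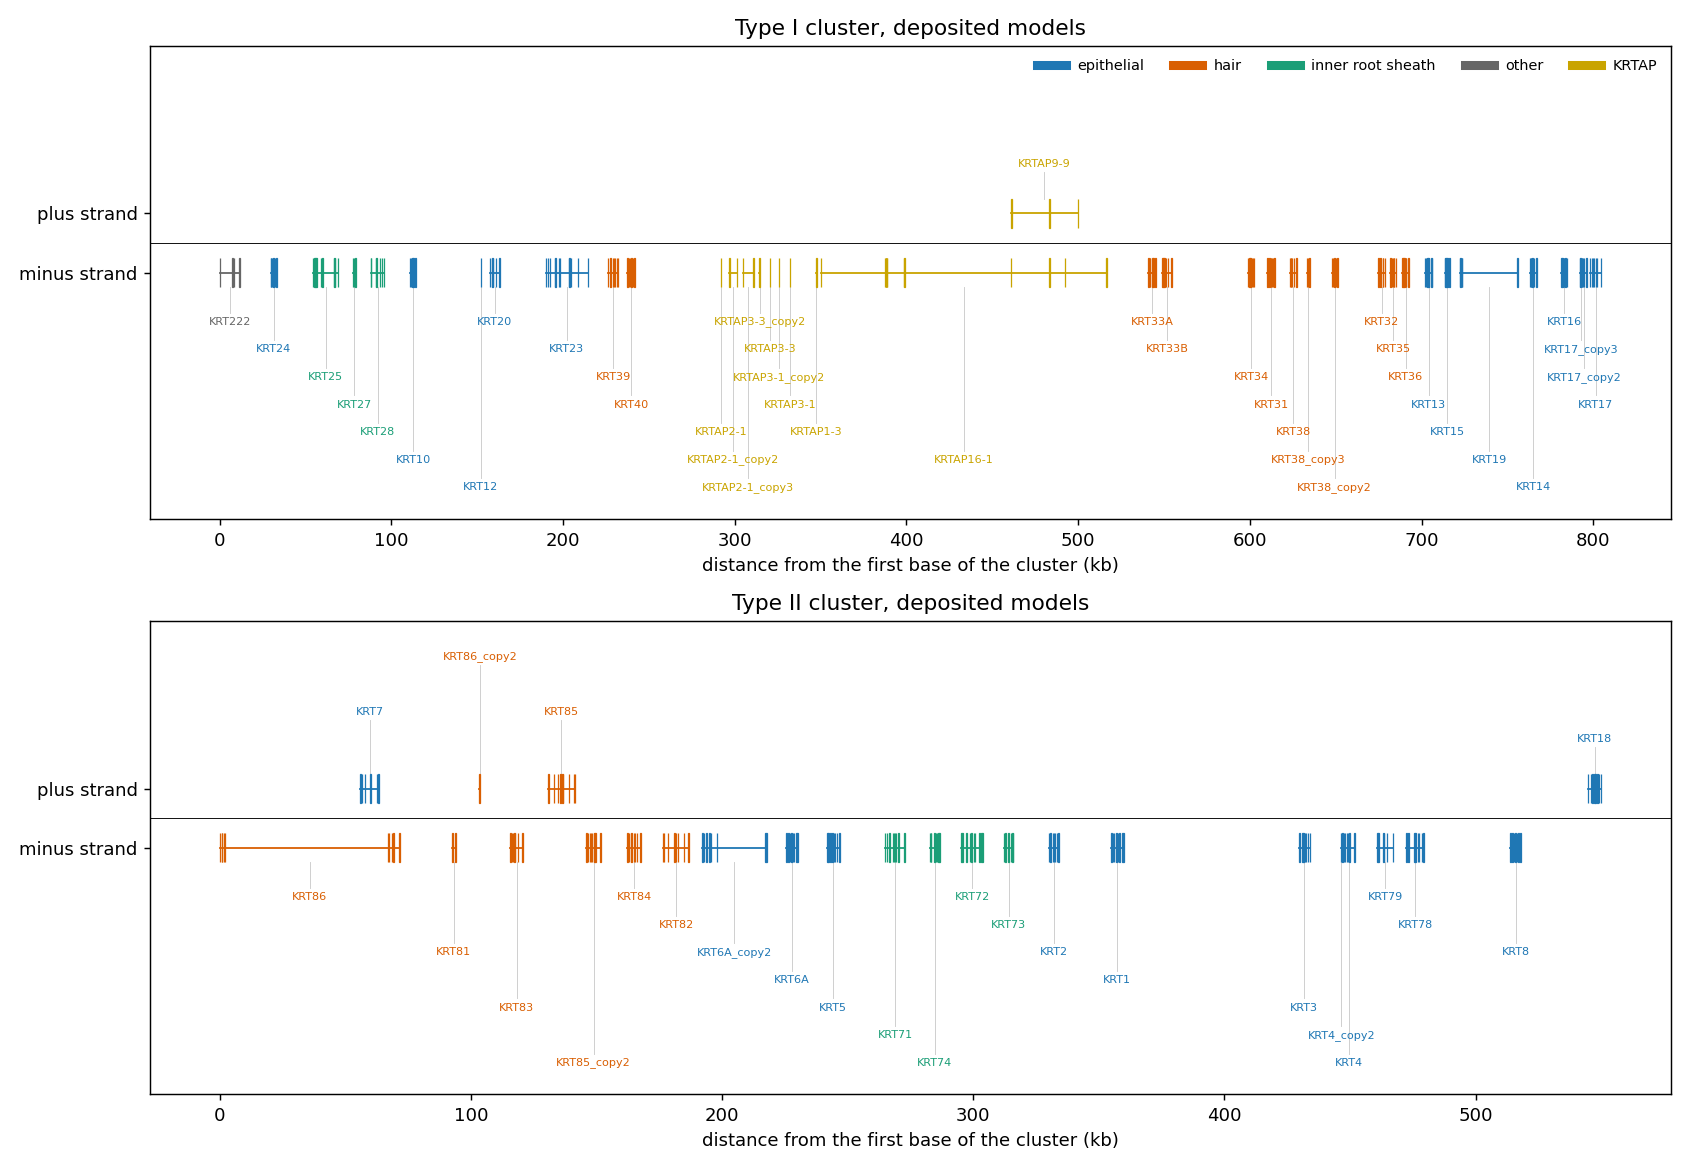
Maps of the type I cluster (805 kb) and the type II cluster (550.0 kb), with distance from the first base of the cluster in kb on the horizontal axis and the strand on the vertical axis; boxes are coding exons, thin lines join the exons of 1 model, and colour gives the class. All 29 keratin models of the type I cluster lie on the minus strand around a stretch of keratin-associated protein models, and 4 of 25 keratin models of the type II cluster lie on the plus strand.

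The genes of the type I cluster ran from KRT222 (8269921 to 8281615, 4 coding exons, 756 coding bases) to KRT17 (9067872 to 9074593, 7 coding exons, 1545 coding bases). The first keratins after KRT222 were KRT24, the inner root sheath keratins KRT25, KRT27 and KRT28, KRT10 of suprabasal epidermis, the corneal keratin KRT12, KRT20 and KRT23. The hair keratins KRT39 and KRT40 followed, and, past the keratin-associated proteins, KRT33A, KRT33B, KRT34, KRT31, 3 models of KRT38, KRT32, KRT35 and KRT36. The last stretch held epithelial keratins: KRT13, KRT15, KRT19, the basal keratin KRT14, and KRT16 and KRT17, which are raised in wounds and appendages.

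The order was compared with a human order written from general knowledge. For each listed gene and the next one with a model, the pair was kept if they shared a scaffold and no other listed gene separated them, whatever unlisted models or copies lay there. In the type I list, which also held flanking genes, 29 of 29 pairs were kept. With each symbol placed at its model without a copy suffix, 27 of 29 were kept. The only gene that this moved was the flanking gene EIF1, placed at EIF1_copy3 in the main order, and no keratin moved. Of the 29 listed type I keratins, 4 had no model under their symbol: the inner root sheath keratin KRT26, the hair keratin KRT37, the palm and sole keratin KRT9, and KRT42. In the type II list, 21 of 25 pairs were kept. The pair KRT7 and KRT81 was split by KRT86, and the pair KRT86 and KRT83 was split by KRT81. Both rest on placing KRT86 at its model with the highest score. KRT86_copy2 (12098238 to 12098588) lay between KRT81 and KRT83, where the list puts KRT86. Which of the 2 models stands for the listed gene was not tested. The other 2 pairs were KRT82 with KRT75 and KRT75 with KRT6A, because KRT75 lay on another scaffold. Of the 27 keratins in this list, KRT18 included, 5 had no model under their symbol: KRT80, KRT6B, KRT6C, KRT77 and KRT76.

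The type II cluster ran from KRT86 (11994772 to 12066523) to KRT18 (12539443 to 12544815). Its first stretch held the hair keratins KRT86, KRT81, KRT83, KRT85, KRT84 and KRT82 together with KRT7 of glandular epithelia. Next came 2 models of KRT6A, the basal epidermal keratin KRT5, and the inner root sheath keratins KRT71, KRT74, KRT72 and KRT73. KRT2 and KRT1 of suprabasal epidermis, the corneal keratin KRT3 and KRT4 of mucosal epithelia followed. KRT79, KRT78, KRT8 and KRT18 closed the cluster, the last pair being the partners of simple epithelia. Its longest gap was 69.9 kb between KRT1 and KRT3, and the single-exon model of ARL2BP (12403418 to 12403921) lay in it. The listed genes KRT77 and KRT76, both without a model under their symbols, stand in that interval in the human order.

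The number of coding exons varied around a common value. In the type I cluster the commonest number was 7 coding exons, in 9 of 29 keratin models, with a range of 1 to 12. In the type II cluster it was 9, in 7 of 25, with a range of 1 to 10, and the 7 include the type I keratin KRT18. Among the type II models of the cluster, 8 coding exons (KRT84, KRT82, KRT6A, KRT72, KRT3 and KRT8) were as common as 9. Coding length had a median of 1320 bases in the type I cluster (range 237 to 2202) and 1422 bases in the type II cluster (range 351 to 2529). The median model spanned 4.13 kb of the type I scaffold and 5.26 kb of the type II scaffold. Over both clusters and all other places, the coding length was a multiple of 3 in 58 of 59 keratin models, where 87.8% of all models had this.

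Each type carried a recognisable run of 4 successive exon lengths in the middle of the model. The run was taken as the commonest of its kind in each type, so its presence in many members is a description and no finding. In type I models it was 83, 157, 162 and 126 bases, and 19 of 30 type I models held it exactly. In type II models it was 61, 96, 165 and 126 bases, and 17 of 29 type II models held it. The background for these counts was 0.0814% and 0.0728% of all models, or 0.137% and 0.122% of models with at least 4 coding exons. The type I run was found in 0 models and the type II run in 0 models that were not keratins.

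KRT33A shows the pattern in a type I hair keratin, with exons of 348, 83, 157, 162, 126, 221 and 109 bases. Its neighbour KRT33B had 351, 83, 157, 162, 126, 221 and 106 bases, and both reached the same coding length of 1206 bases. KRT34 followed with 348, 83, 157, 162, 126, 221 and 106 bases and KRT31 with 348, 83, 157, 162, 126, 221, 141, 132 and 223 bases. These 4 models thus shared the lengths 83, 157, 162, 126 and 221, and their first exons were within 3 bases of each other. KRT85 shows the type II pattern, with exons of 423, 209, 61, 96, 165, 126, 221, 32 and 149 bases. KRT5, the partner of KRT14 in basal epidermis, had the same inner run with 215 bases before it.

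The exon before the run differed in length between hair and most other type II models. It measured 209 bases in all 5 type II hair keratin models with the run (KRT86, KRT83, KRT85, KRT84 and KRT82). Of the remaining 12 type II models with the run, 8 had 215 bases there: KRT6A, KRT5, KRT71, KRT72, KRT1, KRT4, KRT78 and KRT75. KRT6A_copy2, which is named for an epithelial keratin and lies next to the hair keratin KRT82, had 209 bases. KRT3 had 221, KRT2 had 311 and KRT74 had 521. No test was made of this split, which was noticed in these values.

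The exon after the run was 221 bases long in 11 of 19 type I models and in 12 of 17 type II models. In KRT25, KRT28 and KRT10, which lie near each other on scaffold 28, it was 218 bases. The first exon, which encodes the variable head of a keratin and the start of its rod, varied more. Where the type I run began in exon 2, the first exon had a median of 388.5 bases in 10 hair keratin models (225 to 510) and 657 bases in 5 epithelial models (216 to 702). The ranges overlapped. For type II models whose run began in exon 3, the medians were 423 bases in 5 hair models (366 to 528) and 555 bases in 7 epithelial models (48 to 735), again with overlap.

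**Figure D2:**
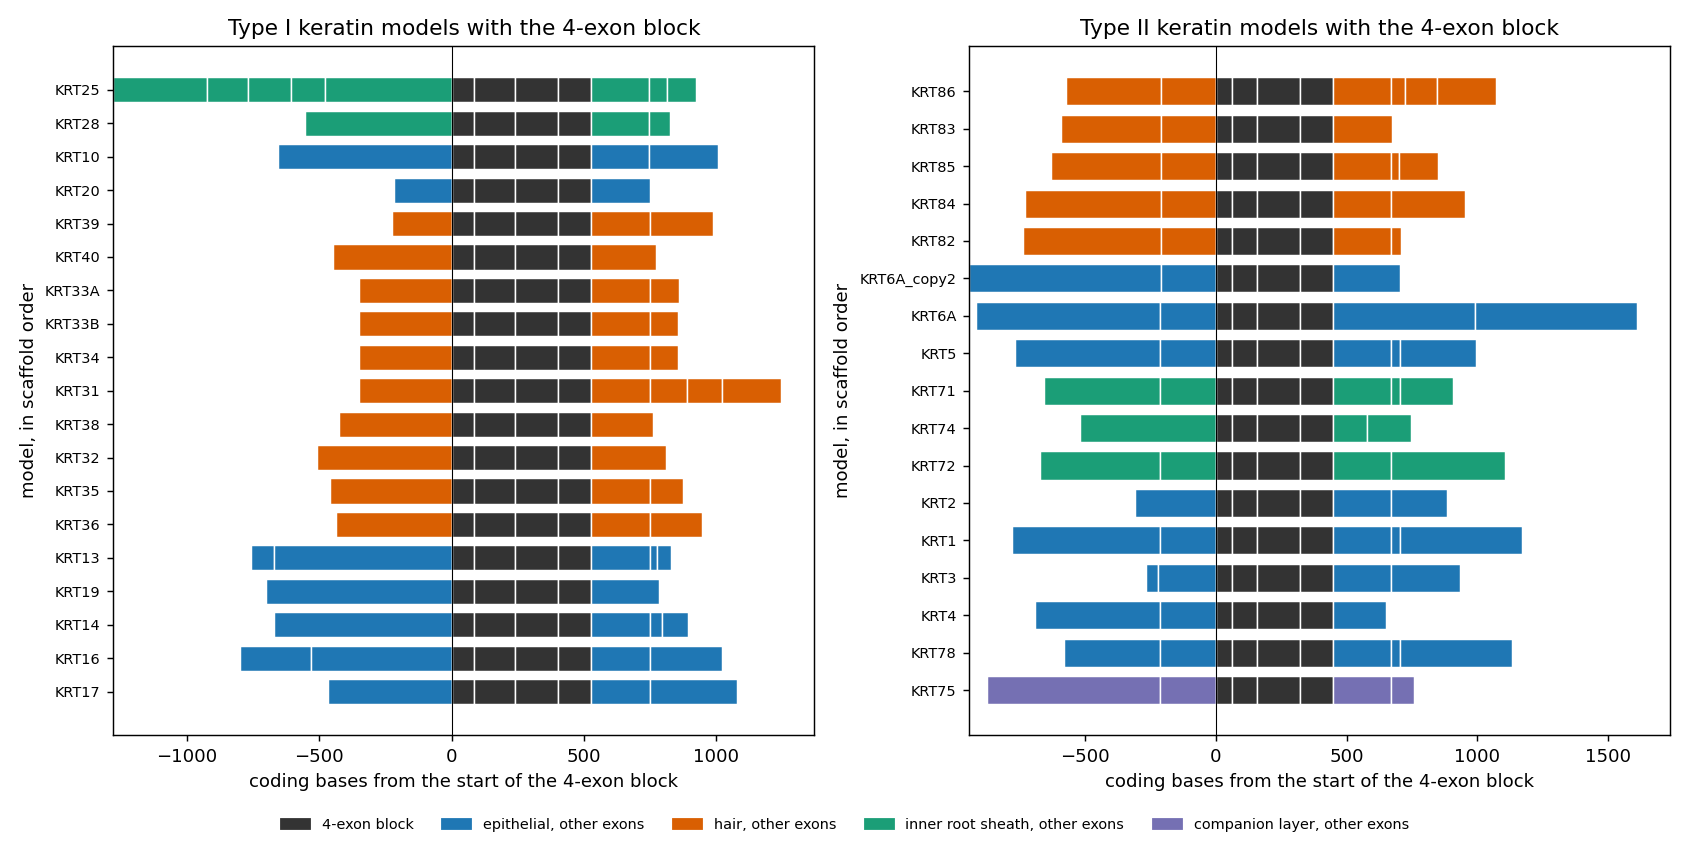
Coding exons of the type I and type II keratin models that hold the run of 4 exon lengths, aligned at its first base, with coding bases on the horizontal axis and models in scaffold order on the vertical axis; dark boxes are the 4 exons of the run and coloured boxes are the other exons, by class. The 19 type I and 17 type II models align inside the run and differ mainly in the first and last exons.

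Models with at least 4 coding exons that lacked the exact run numbered 8 of 27 in type I and 5 of 22 in type II. Several were close to it. KRT24 had 83, 157, 165 and 126 bases, KRT18 had the same 4 lengths, and KRT23 had 83, 157, 162 and 123 bases. With each exon allowed to differ by up to 3 bases, 22 models held the type I run and 19 the type II run. The 2 models added to the type II run were DES, desmin of muscle, and GFAP of astrocytes, intermediate filament genes that are no keratins and had 61, 96, 162 and 126 bases. In KRT15, a keratin of basal cells, the exons were 519, 83, 157, 162, 512 and 40 bases, so the run ended before its last exon.

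Some models held more or fewer exons than their neighbours. KRT25 had 12 coding exons and 2202 coding bases (8324268 to 8339056), with lengths of 353, 157, 162, 126, 480, 83, 157, 162, 126, 218, 68 and 110 bases. The succession of 157, 162 and 126 bases thus occurred 2 times in this model. An intron of 6.30 kb after exon 4 separated 798 coding bases from the following 1404. KRT27, the next model, had 3 exons of 444, 83 and 226 bases, while KRT28 had 7 exons and 1377 coding bases. KRT26 stands between KRT25 and KRT27 in the listed order and had no model under its symbol.

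KRT86 was the widest keratin model of the type II cluster. Its 10 exons were 366, 209, 61, 96, 165, 126, 221, 56, 121 and 226 bases long, and an intron of 64.6 kb (11997111 to 12061678) lay inside the run, after exon 5. The exons before it held 897 coding bases and those after it 750. KRT7 (12050880 to 12058140, plus strand, 6 coding exons, 1050 coding bases) lay wholly within that intron. KRT81 followed as a short model of 372 and 213 bases (12087421 to 12088756). Position by the 5′ end placed KRT86 between KRT7 and KRT81.

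KRT19, a keratin of simple and glandular epithelia, had an intron of 31.8 kb after its first exon of 702 bases, and its match to the target began at base 380. KRT6A_copy2 had an intron of 18.9 kb after its first exon. Introns of this size were uncommon among keratins: the longest intron exceeded 5 kb in 6 of 54 multi-exon keratin models (11.1%), against 45.6% of all multi-exon models. The median longest intron was 1.15 kb in keratins and 4.38 kb in all multi-exon models. The remaining 3 of the 6 were KRT222 (7.03 kb), KRT25 (6.30 kb) and KRT23 (5.52 kb). KRT23 had 12 exons and 1713 coding bases, and its 4 exons closest to the run were exons 6 to 9.

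Single-exon keratin models numbered 5 of 59 (8.47%), against 24.7% of all models. Of the 54 keratin models in the clusters 2 had 1 coding exon (3.70%), and of the 5 elsewhere 3 did. KRT12 in the type I cluster was 237 bases long (8421926 to 8422162) and matched bases 326 to 562 of its target. The copy of KRT86 on the plus strand of scaffold 34 (12098238 to 12098588) had 351 coding bases and 32.4% of the score of the best KRT86 model. The remaining 3 were copies of KRT8, described next.

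KRT8, the type II keratin of simple epithelia, had 5 models on 4 scaffolds, the most of any keratin when each model is counted singly. The model in the type II cluster (12508630 to 12512630) had 8 coding exons and 1068 coding bases and matched bases 872 to 1909 of its target. KRT8_copy2 on scaffold 26 (4193858 to 4194619) was a single exon of 762 bases with 85.5% of the best score. KRT8_copy3 (36496153 to 36496550, 398 bases) and KRT8_copy5 (36496596 to 36496865, 270 bases) lay side by side on scaffold 5, between the claudin gene CLDN3 and ABHD11. They matched bases 947 to 1345 and bases 641 to 898 of the target. KRT8_copy3 was the keratin model whose coding length was no multiple of 3. KRT8_copy4 on scaffold 9497 (262 to 1159) had 2 exons and 495 coding bases. Counting models that matched separate parts of the target as 1, whatever their scaffold, left 3 models for KRT8, as many as for KRT38. This joined KRT8_copy5 to the model of the type II cluster and KRT8_copy4 to KRT8_copy3, each pair on different scaffolds. KRT8_copy3 and KRT8_copy5 also matched separate parts and lay 0.045 kb apart on 1 strand, but were not joined to each other. Whether they are parts of 1 copy was not tested.

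Copy numbers of keratins were otherwise low. At least 2 models were carried by 7 of 47 keratin symbols (14.9%), a share near the 14.6% of all symbols. KRT17 had 3 models at the upper end of the type I cluster. KRT17_copy2 (9063167 to 9066068, 4 exons, 921 coding bases) matched bases 1 to 800 of the target, and KRT17_copy3 (9062041 to 9063125, 3 exons, 465 coding bases) matched bases 842 to 1302. These 2 lay 41 bases apart, and KRT17 itself matched bases 356 to 1420. The mucosal keratin KRT4 (12441662 to 12446750, 7 exons, 1344 coding bases) and KRT4_copy2 (12441016 to 12441580, 2 exons, 456 coding bases) lay 81 bases apart. They matched bases 59 to 1404 and bases 1402 to 1773, so merging by target left 1 model for KRT4 and 2 for KRT17. After merging, 6 keratin symbols still had at least 2 models.

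Besides KRT86, described above, KRT38, KRT85 and KRT6A had repeated models, each set lying side by side. KRT38, a type I hair keratin, had 3 models in a row: KRT38 (8893159 to 8897301, 6 exons, 1188 coding bases), KRT38_copy3 (8902975 to 8904704, 4 exons, 771 coding bases, 56.6% of the best score) and KRT38_copy2 (8917435 to 8920940, 6 exons, 852 coding bases, 82.2%). KRT38_copy2 began with 53 bases before 157, 162, 126 and 221 bases. KRT38_copy3 held 309, 126, 221 and 115 bases. KRT37, the listed neighbour of KRT38, had no model under its symbol. KRT85 (12125477 to 12136216, plus strand) and KRT85_copy2 (12140786 to 12146639, minus strand) lay 4.57 kb apart on opposite strands. Each had 9 exons, of which 6 had the same length in both. The 5th exon had 165 bases in KRT85 and 63 bases in KRT85_copy2, which had 75.4% of the best score. KRT6A (12220163 to 12224997, 8 exons, 2529 coding bases) and KRT6A_copy2 (12186885 to 12212502, 7 exons, 1647 coding bases, 91.4%) lay side by side, and the listed genes KRT6B and KRT6C had no model under their symbols.

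KRT75, the keratin of the companion layer of the hair follicle, was the only keratin model outside the 2 clusters that held the run of exon lengths. It lay on scaffold 945 (1154 to 8597, minus strand), where it was the only model. Its 8 exons were 660, 215, 61, 96, 165, 126, 221 and 88 bases, 1632 coding bases in all. Its last base was also the last annotated base of the scaffold. In the listed order KRT75 stands between KRT82 and KRT6A, which are neighbours on scaffold 34 except for KRT6A_copy2.

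The keratin clusters were set against RefSeq genes of the mole build MPIMG_talOcc4v2.1, a different build used only for names and neighbours. It lists 31603 genes, with 29 KRT symbols and 1 KRTAP symbol, and held 26 of the 47 deposited keratin symbols and 0 of the 20 keratin-associated protein symbols. The listed pairs of that table were kept in 17 of 17 cases for type I and 18 of 18 for type II. These pairs cover only the 14 of 29 type I and 15 of 27 type II listed keratins with a symbol there. KRT81, KRT86, KRT83, KRT75 and KRT6A have none, so the 4 type II pairs not kept in the deposited order could not be compared. Among the listed keratins without a deposited model, KRT26, KRT80 and KRT77 are named there. KRT80 stands between ATG101 and KRT7, where 0 deposited models had their 5′ end. The last 5 exons of KRT86 (11994772 to 11997110, 750 coding bases) lay in that interval.

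Between SMARCE1 and JUP the deposited annotation had 43 models and RefSeq 66 protein-coding genes. Between KRT40 and KRT38 there were 15 deposited models, 4 of them keratins and 10 keratin-associated proteins, and 38 protein-coding genes in RefSeq, 37 of them without a symbol. Outside that stretch each table had 28, the genes named in both included, but the tables still differed in places. Between KRT25 and KRT20 there were 4 deposited models and 7 in RefSeq, 1 of them KRT26. Between KRT38 and KRT32 lay 2 deposited models, the copies of KRT38, and 0 RefSeq protein-coding genes. Between KRT16 and KRT17 lay 2 deposited models, the copies of KRT17, and again 0 RefSeq genes. The counts match no model to a RefSeq gene, so which RefSeq gene corresponds to which copy was not tested. On the type II side the interval from ATG101 to SPRYD3 held 28 deposited models and 34 RefSeq genes.

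**Figure D3:**
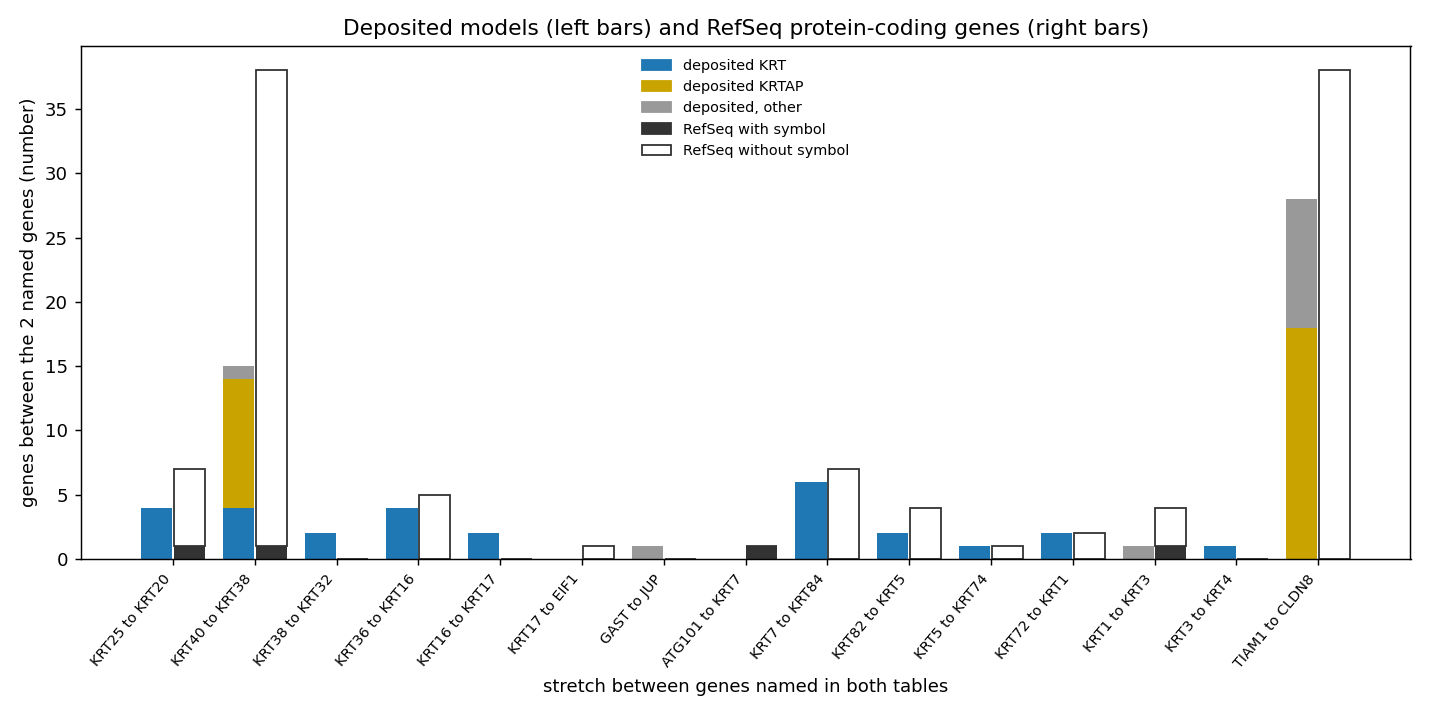
Number of genes between named genes that both tables share, with the deposited models in the left bar and RefSeq protein-coding genes in the right bar of each stretch, coloured by kind. The stretch from KRT40 to KRT38 holds 15 deposited models and 38 RefSeq genes, and the stretch from KRT25 to KRT20 holds 4 and 7.

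The 37 keratin-associated protein models belonged to 16 of 29 listed families. The high-sulfur families were covered in 11 of 17 cases, the ultrahigh-sulfur families in 3 of 4, and the high glycine-tyrosine families in 2 of 8. The models lay in 3 runs on large scaffolds (31 models), in a run of 3 on scaffold 529, and alone in 3 places. Single-exon models made up 23 of 37 (62.2%), against 24.7% of all models. The other 14 models had introns, and their longest intron had a median of 6.94 kb, and it exceeded 5 kb in 11 of them (78.6%), against 4.38 kb and 45.6% for all multi-exon models.

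The largest run lay on scaffold 4, from KRTAP11-1 to KRTAP24-1 (7408659 to 8009067), and spanned 600.4 kb. It held 18 models under 10 symbols, 12 of them with 1 coding exon, 12 on the plus strand and 6 on the minus strand. By family, 11 were high-sulfur and 7 high glycine-tyrosine. Coding lengths ran from 267 bases in KRTAP6-3_copy2 to 774 bases in KRTAP24-1, with a median of 432. The nearest outside genes were TIAM1, an activator of the GTPase RAC1, 162.2 kb below, and the claudin gene CLDN8, 53.1 kb above. Between TIAM1 and CLDN8 there were 28 deposited models, 18 of them keratin-associated proteins and 10 without a symbol, and 38 RefSeq protein-coding genes, all of them without a symbol.

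The run within the type I keratin cluster spanned 225.2 kb of scaffold 28, from KRTAP2-1 to KRTAP9-9 and the end of KRTAP16-1 (8561677 to 8786856). It had 10 models under 6 symbols, 6 with 1 coding exon, 9 on the minus strand and 1 on the plus strand. Its gap to KRT40 was 50.1 kb and its gap to KRT33A 23.98 kb. The shortest coding length was 276 bases in KRTAP3-1_copy2 and the median was 358.5 bases. KRTAP16-1 stood apart from all other keratin-associated proteins, with 13 coding exons, 2268 coding bases and a span of 166.5 kb (8620358 to 8786856). Its longest intron was 61.9 kb, and its match covered bases 402 to 877 of the target. KRTAP9-9 (8730704 to 8769870, plus strand, 3 exons, 990 coding bases) lay inside it and shared 569 coding bases with it on the opposite strand.

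Of the 26 high-sulfur models these 2 runs held 11 and 9, and of the 4 ultrahigh-sulfur models they held only KRTAP9-9. The others of both classes lay on the scaffolds below. On scaffold 56, 3 models of KRTAP10-3 (698096 to 743536) had 1, 5 and 6 coding exons and 735 to 1482 coding bases. The gene TSPEAR, in which the human KRTAP10 and KRTAP12 genes lie, was 12.2 kb above. On scaffold 529 stood 3 models of KRTAP13-1 (2522 to 14060), with 264 to 543 coding bases. KRTAP5-4 lay alone on scaffold 307 (17375 to 17709, 302 coding bases), KRTAP4-4 on scaffold 9338 (5 to 448, 444 coding bases) and KRTAP4-1 on scaffold 10287 (1596 to 1847, 252 coding bases). Scaffolds whose annotation ended before 1 Mb held 6 of 37 keratin-associated protein models (16.2%), 2 of 59 keratin models and 12.5% of all models. Coding length was a multiple of 3 in 35 of 37 models, the exceptions being KRTAP5-4 and KRTAP27-1 (637 bases).

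**Figure D4:**
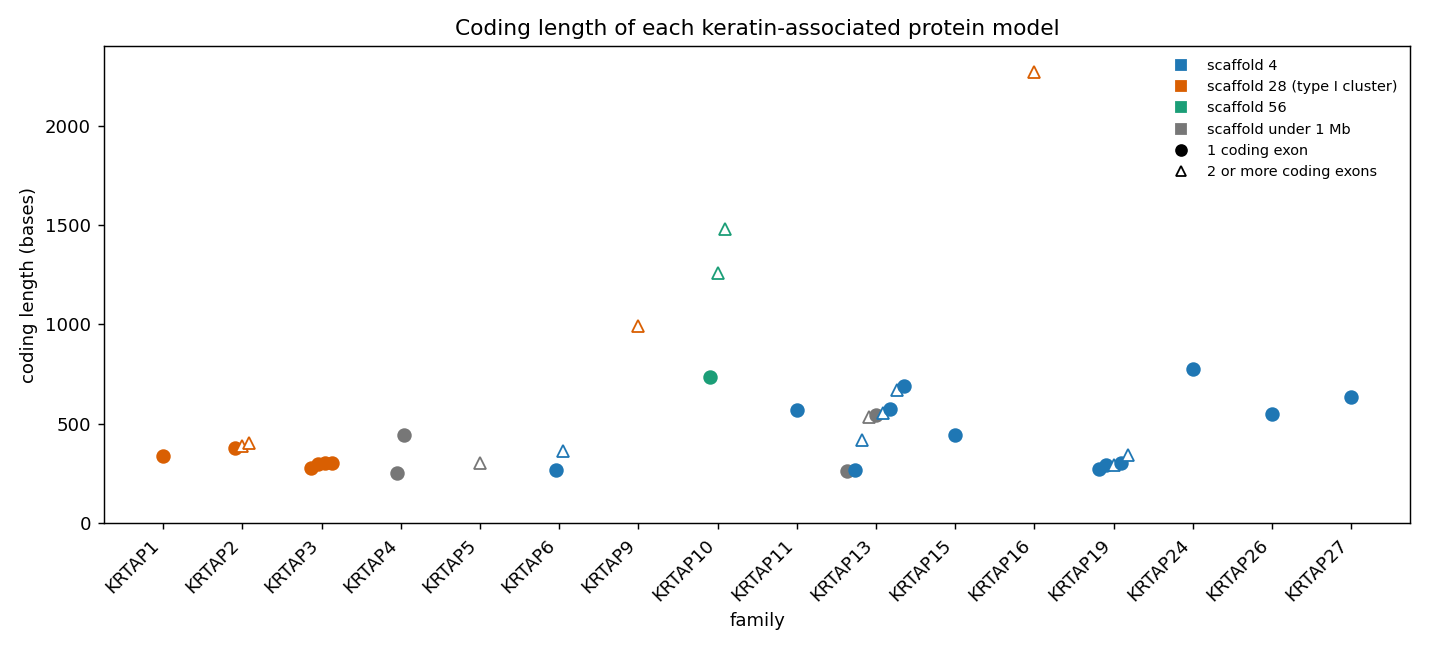
Coding length in bases of each keratin-associated protein model by family, coloured by scaffold, with circles for models of 1 coding exon and open triangles for models of 2 or more. KRTAP16-1 reaches 2268 bases with 13 coding exons, above the 3 KRTAP10-3 models at 735 to 1482 bases, and KRTAP24-1, the longest of scaffold 4, has 774.

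At least 2 models were carried by 7 of 20 KRTAP symbols (35.0%), beside 14.6% of all symbols and 14.9% of keratin symbols. The count was also 7 after models matching separate parts of a target were merged. KRTAP13-1 had 8 models on 2 scaffolds, 5 of them single-exon, with scores from 32.3% to 100% of the best. On scaffold 4 a minus-strand model had its lowest base at 7844988 and a plus-strand model at 7848832. On scaffold 529 such models had their lowest bases at 9644 and 13488, and all of these models matched bases 14 to 526 of the target. Whether scaffold 529 repeats part of scaffold 4 was not tested, so the 8 models may not be separate genes. KRTAP19-1 had 4 models, and KRTAP2-1 and KRTAP10-3 had 3 each. The KRTAP2-1 copies reached 99.4% and 80.1% of the best score. The 2 KRTAP3-3 models had 306 coding bases each, and the copy had 96.8% of the best score. How alike the copies are in sequence was not analysed here.

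Models of keratin-associated proteins overlapped another model in 9 of 37 cases (24.3%), against 6.38% of all models and 2 of 59 keratin models. The 8 overlapping pairs with a member were all on opposite strands. The share of opposite strands among overlapping pairs of all models is not given here, so this is no trait of the members. Of the 8 pairs, 5 were between members, and 1 of the 5, KRTAP16-1 with KRTAP9-9, shared coding bases. KRTAP13-1_copy7 had an intron of 42.7 kb that enclosed KRTAP15-1.

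Genes that act with keratins were read from lists of other symbols. All 15 listed intermediate filament genes outside the keratins had a model. So had all 15 listed genes of desmosomes and keratin anchoring and all 14 listed regulators of hair and epidermis. Some best models were short or had 1 coding exon: PKP3 (1 exon, 236 bases), VIM (1 exon, 1410 bases), PRPH (258 bases) and BFSP2 (408 bases). HOXC13, a regulator of hair keratin genes, lay on scaffold 34, 0.649 Mb from the type II cluster (13194273 to 13280795, 3 coding exons, 420 coding bases). Of 13 cornified envelope and hair shaft genes, 8 had a model. The 5 without one under their symbol were TCHH (trichohyalin), LOR (loricrin), FLG (filaggrin), RPTN (repetin) and S100A3, and RefSeq names 3 of these 5, TCHH, FLG and S100A3.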

How the data were processed

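The authors deposited gene models of build talOcc3 as other values (first and last bases, counted from 1) and a score for each transcript's match to a target. Per the file headers and columns, models came from EVM, exonerate or ALN. Software versions and how the score was calculated are not given in the sources used here. Per the submitters' processing notes, BWA was used on the reads, which were not analysed here. Sequencing depth is unknown, and the 2 libraries entered no comparison.

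Symbols, coding exons and coding lengths were read with Python 3.11.15 and pandas 2.3.3. A run joined members on 1 scaffold with edges within 500 kb. Scaffold size was the last annotated base. Gene order used each model's 5′ end. Score percentages are of the best model of that symbol. Merged models overlapped by at most 30 target bases and could lie on different scaffolds. Routines were tested on simulated data.

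Members and lists were chosen with earlier results of these data known. Named with values were cluster and run ends, models out of order, repeated symbols, unusual exon numbers, longest and shortest KRTAP models, listed symbols without a model, and neighbours or list members. Genes named beyond this, such as KRT33A, KRT15 and KRT19, were chosen after their values were seen. The exon runs were also chosen after seeing the data. Alternatives covered source, coding minimum, scaffold size, run limit, splitting, order and low-confidence names.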

Additional observations from a re-analysis of the deposited data

How the results depend on the processing

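Of 41 recomputed values, 34 planned and 4 added ones stayed close to those reported. Single-exon keratin models fell from 5 to 3 when models under 300 coding bases were left out and to 0 among EVM models alone. Under RefSeq order the type I pairs kept numbered 17 of 17, since fewer listed genes carry a symbol there. Over the other alternatives keratin models numbered 57 to 59, keratin-associated protein models 29 to 37, and runs of the latter 3 to 4. Ordering by lowest base and the tolerance of 3 bases were chosen after seeing the data; the former kept 20 of 25 type II pairs. No low-confidence model was a member. No paired analysis was possible because the annotation has no column for either library. Limits come from the assembly: a symbol without a model is not shown to be missing from the genome, and split or joined models cannot be told from real changes without sequence, which was not used here.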
